A study of Bos taurus with 18 samples.

Results

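NFYB and HCFC2 are neighbouring genes of transcription regulators on cattle chromosome 5, and their CpG methylation was examined in the sperm of 18 Holstein bulls. All CpG positions that at least 1 bull lists inside either gene or within 2000 bp of its ends were taken, which gave 826 positions, 501 for HCFC2 and 325 for NFYB, of the 40640718 positions listed in the whole series. In whole-genome bisulfite sequencing only methylated cytosines are still read as cytosine, and the methylation level of a position is the percent of its reads that do so. Each strand of a CpG is its own position here. In UMD 3.1 coordinates HCFC2 spans chr5:68052161-68097172 and NFYB spans chr5:68108515-68127921.

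All bulls were adult, all DNA came from sperm and each bull gave 1 library. The bulls were grouped as high or low for 5 traits, where a high bull has the higher predicted transmitting ability, the genetic value it hands on, or for sire conception rate the higher rating of its own fertility. For gestation length (GL), H03, H09, L03 and L05 were high and H02, H05, L01 and L07 were low. For sire calving ease (SCE), H03, H07 and L02 were high and H01, H06 and L09 were low. For body depth (BDE), H02, L03 and L08 were high and H05, H09 and L02 were low. For cow conception rate (CCR), H08, H09 and L06 were high and H06, L08 and L09 were low. For sire conception rate (SCR), H01, H02 and H03 were high and L01, L02 and L03 were low. The letters H and L of the sample names match the SCR groups and do not give the group of the other traits. Since 11 of the 18 bulls stand in groups of 2 or 3 traits, the 5 comparisons share animals, and H04 and L04 stand in none.

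NFYB is a histone-fold subunit of the trimer NF-Y, which binds CCAAT boxes in promoters together with its partners NFYA and NFYC. HCFC2 is a paralog of the host cell factor HCFC1, carries kelch repeats, and has been found with histone methyltransferase complexes of the MLL and SET family. The DNA of mammalian sperm is methylated at most CpG positions, with long unmethylated stretches mainly at CpG-rich promoters.

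Both genes showed the same plan, with 1 unmethylated stretch at one end and high methylation over the rest. The longest run of consecutive positions whose mean over the listing bulls was under 50%, called the low run below, held 117 positions in HCFC2 and 106 in NFYB. In HCFC2 it reached from 68050534 to 68054305, a length of 3772 bp, of which 1627 bp lie before the lower end of the gene and 2145 bp inside it. In NFYB it reached from 68125852 to 68129145, a length of 3294 bp, of which 2070 bp lie inside the gene at its upper end and 1224 bp beyond it. The low runs therefore sat at the outer ends of the pair, HCFC2's at its lower and NFYB's at its upper coordinate. The strand of transcription and the exons are not given in the sources used here, so neither run is called a promoter or an exon.

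Inside the low run the position means averaged 3.82% in HCFC2 and 5.24% in NFYB, with medians of 1.10% and 1.78%. No methylated read was recorded in any listing bull at 52 of the 117 positions in HCFC2 and at 40 of the 106 in NFYB. The means stayed under 5% at 86 and 76 positions. Outside the run the position means averaged 92.3% over 384 positions of HCFC2 and 93.6% over 219 positions of NFYB. Of these, 307 and 183 lay over 90%. Intermediate levels were rare, with a mean between 25% and 75% at 18 of the 501 positions of HCFC2 and 14 of the 325 of NFYB.

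**Figure D1:**
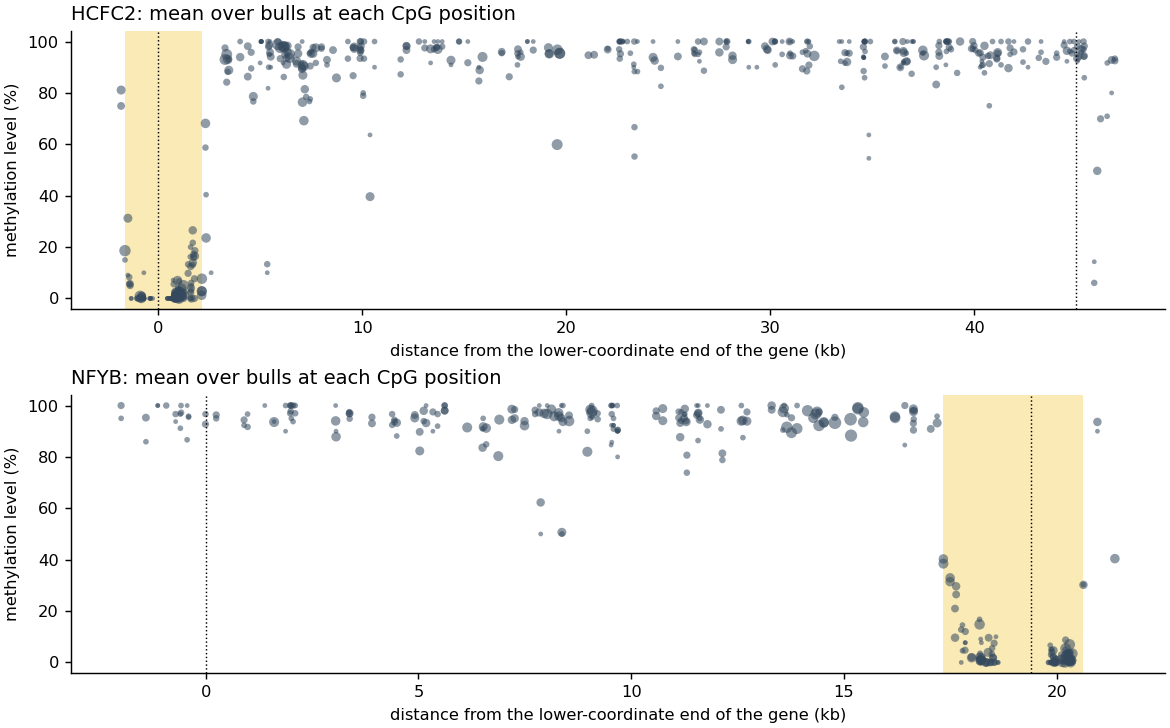
Mean methylation in percent (vertical axis) at each CpG position along HCFC2 and NFYB, in kb from the lower end of the gene (horizontal axis). Point area grows with the number of bulls that list the position, yellow marks the low run and dotted lines the gene ends. The low run averages 3.82% in HCFC2 and 5.24% in NFYB, against 92.3% and 93.6% over the rest.

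The 4 edges of the low runs differed in shape. At the outer edge of HCFC2 the mean was 74.9% in 5 bulls at 68050344 and 81.1% in 7 bulls at 68050345. It was 18.6% in 12 bulls at 68050534, 8.28% at 68050744 and 0% at 68051140. The bin from 68051001 to 68052000 averaged 0.567% and the next 1000 bp, from 68052001, where the gene begins, 0.820%. Going into the gene the level was 7.68% at 68054304, then 68.1% in 8 bulls at 68054481 and 23.5% in 8 bulls at 68054510, and 93.0% in 11 bulls at 68055438. The inner edge of HCFC2 thus held high and low positions side by side.

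The inner edge of NFYB was a slope of intermediate positions rather than a step. From 93.2% in 7 bulls at 68125706 the mean fell to 40.3% in 8 bulls at 68125852 and 38.5% in 9 bulls at 68125853. It was 31.5% at 68126010, 32.9% at 68126011, 21.0% at 68126126 and 29.7% at 68126152. Farther out the mean was 1.83% in 8 bulls at 68126517. The bins of 1000 bp that start at 68127001 and 68128001 averaged 2.64% and 1.67%. At the outer edge the mean rose from 30.2% at 68129145 to 93.6% at 68129473, with 6 bulls at each.

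Beyond the low runs HCFC2 had a further dip past its upper end. The mean was 6.06% in 3 bulls at 68098045, 49.7% in 6 bulls at 68098193 and 69.9% at 68098356, and the bin from 68098001 to 68099000 averaged 59.4%. At 68098193 the single values were 72.7% in H01, 53.8% in H05, 64.3% in H06, 28.6% in H07, 28.6% in L05 and 50% in L06. In all, 21 positions of HCFC2 and 6 of NFYB outside the low run had a mean under 75%.

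Depth bounded what each bull could show. A position is listed only where a bull has at least 10 reads, and coverage is given for 6 bulls only. In those 6 the median was 11 reads in HCFC2 and 11 to 12 in NFYB, and the highest coverage of any position there was 22 reads. The depth of the remaining 12 bulls is unknown. With 10 reads, counting error alone gives an SD of 15.8 points at a level of 50% and of 9.49 points at 90%. In the 6 bulls with coverage, reads could be summed over a whole stretch. The low run of HCFC2 held between 2.63% methylated reads in L03 (5 of 190, exact 95% interval 0.860 to 6.03%) and 9.21% in H01 (7 of 76, 3.78 to 18.1%). In the low run of NFYB, H03 had 0 of 270 methylated reads, which allows a level of up to 1.11% by the limit of 3 reads (exact 95% interval 0 to 1.36%). L02 stood highest there with 34 of 114, or 29.8% (21.6 to 39.1%), from 10 positions. Of these, 6 lie on the slope at the inner edge between 68125852 and 68126152 (10 to 61.5%) and 1 is 68129145 at the outer edge (38.5%), while 68126517, 68126704 and 68128650 had 0%, 10% and 0%. Intervals and limits of this kind cover counting error only, since PCR copies of a molecule are not told apart.

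Bulls differed in which positions they list. In HCFC2 the number listed ran from 11 to 254 (median 85), and in NFYB from 11 to 180 (median 78). No position is listed in all 18 bulls. The most bulls at 1 position were 12 in HCFC2 and 15 in NFYB, and 112 and 45 positions are listed in 1 bull only. Positions in at least 9 bulls numbered 31 in HCFC2, with 15 in its low run, and 51 in NFYB, with 20 in its low run.

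The mean over all positions a bull lists ran from 47.8% in L04 to 84.2% in L07 in HCFC2 and from 47.4% in H04 to 89.5% in L09 in NFYB. The share of a bull's listed positions that fall in the low run ran from 8.85% in L07 to 46.2% in HCFC2, and from 9.09% in L09 to 52.9% in H09 in NFYB. Across the 18 bulls this share and the mean had a Pearson's r of −0.984 in HCFC2 and −0.993 in NFYB, given as a description, since both come from the same listed positions. Each stretch was then taken alone. Among bulls with at least 20 positions outside and 10 inside the low run, the outside mean was 86.0 to 94.3% in the 14 such bulls of HCFC2 and 89.6 to 95.2% in the 13 of NFYB. In the same bulls the low run averaged 1.53 to 7.69% in HCFC2. In NFYB it averaged 0 to 27.9%, with the highest value in L02, whose positions lie mostly on the edges. Whether the mean of a low run goes with the number of edge positions a bull lists was not tested.

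**Figure D2:**
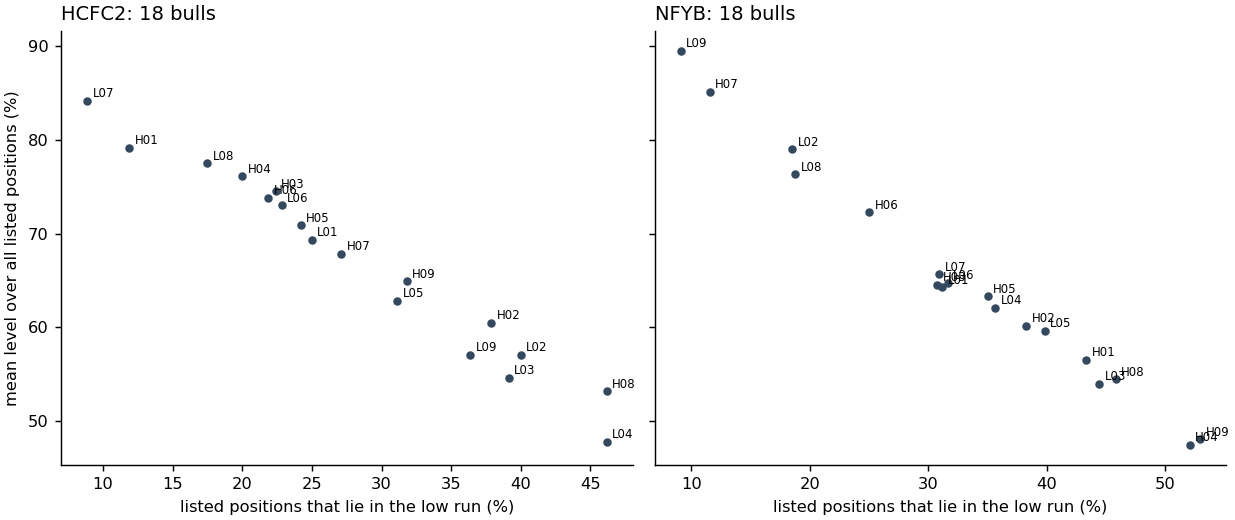
Percent of a bull's listed positions that fall in the low run (horizontal axis) against the mean methylation over all its listed positions, in percent (vertical axis), 1 point for each of 18 bulls in HCFC2 and NFYB. The points fall along a line, from 84.2% in L07 to 47.8% in L04 for HCFC2 and from 89.5% in L09 to 47.4% in H04 for NFYB.

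Levels were next compared at like positions. For each position in at least 9 bulls the mean over its bulls was subtracted. The differences were averaged for each bull, over 3 to 31 positions in HCFC2 and 6 to 47 in NFYB. This mean deviation ran from −3.23 points in H02 to 6.23 points in H03 in HCFC2 (SD 2.47, n = 18) and from −2.29 points in L06 to 1.63 points in H05 in NFYB (SD 0.993, n = 18). At these positions the median SD between bulls was 3.14 points in the low run of HCFC2 and 6.4998 points outside it. In NFYB these were 3.71 and 6.17 points. The mean deviations of the 2 genes had a Pearson's r of −0.0905 over the 18 bulls, while the shares of positions listed had 0.954. Bulls that list many positions in one gene thus list many in the other. This is not particular to the pair. The shares for ARID4B, another gene fine-mapped by the study, had an r of 0.940 with NFYB and 0.896 with HCFC2. For CPSF1 these were 0.111 and −0.00476.

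Where the same bull lists both strands of a CpG, the strands could be compared. In the low run the median absolute difference between strands was 0 points over 84 pairs in HCFC2 and 3.89 points over 60 pairs in NFYB. Outside it was 6.90 points over 156 pairs and 7.14 points over 138 pairs. Of the pairs outside, 129 and 116 lay within 10 points. At positions with a mean between 25% and 75% the median difference was 14.8 points over 6 pairs in HCFC2 and 13.3 points over 14 pairs in NFYB.

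Few positions varied widely between bulls. The largest SD in HCFC2 among positions in at least 9 bulls was 31.6 points at 68071719, inside the gene, where the mean was 59.9% in 11 bulls. The lowest value was 8.33% in L01 (1 of 12 reads, exact 95% interval 0.211 to 38.5%), the median 46.2% in L04, and the highest 100% in H03 (11 of 11 reads, 71.5 to 100%) and L06. H04 and H05 also lay high, at 90.9% and 94.1%, and the remaining bulls between 30% and 60%. The next 2 were at the edges of the low run. At 68050534 the SD was 12.3 points around 18.6%, from 0% in H02 and H07 to 35.3% in L07. At 68054304 it was 10.3 points around 7.68%, from 0% to 30% in L08.

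In NFYB the largest SD was 24.9 points at 68115391, with a mean of 80.3% in 9 bulls. L07 had 41.7%, L06 46.7% and L05 55.6%, while the other 6 bulls lay between 88.9% and 100%. L05, L06 and L07 are of unknown depth, and of the other bulls here depth is known only for H01, H03 and L01. At 68125853, on the inner edge, the SD was 16.3 points, from 13.3% in L04 to 60% in L01, with a median of 43.8%. At 68117485 it was 13.2 points, from 58.3% in L07 to 100% in H02, with a median of 84.6%. Positions 68050534 and 68125853 thus sit on the slopes that the called tiles below contain.

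**Figure D3:**
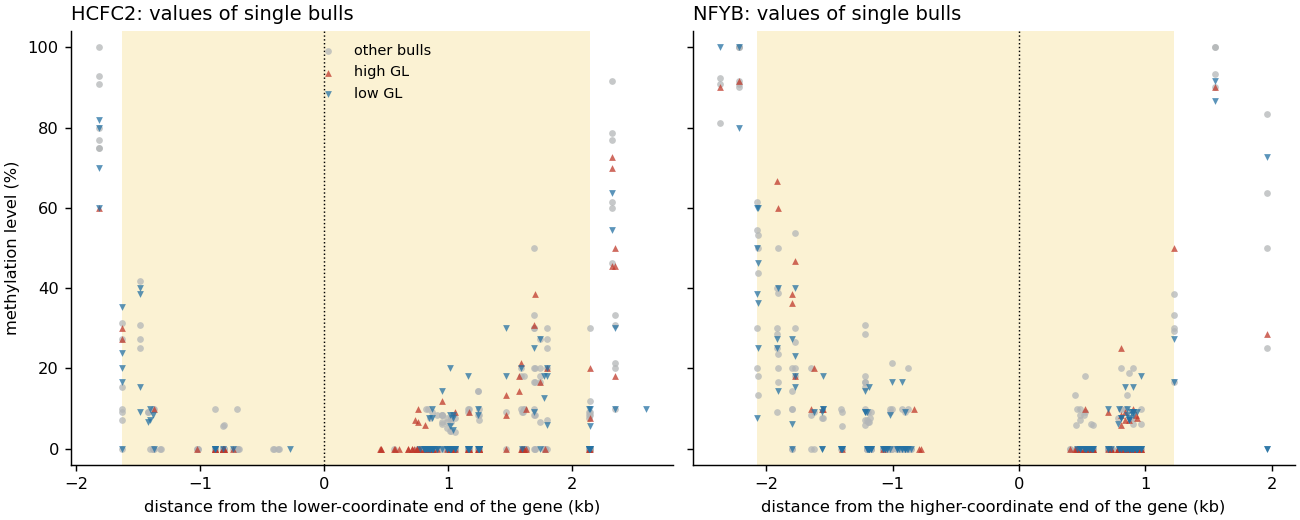
Methylation in percent (vertical axis) of every listed position of every bull around the low runs of HCFC2 and NFYB. The horizontal axis is in kb from the lower end of the gene for HCFC2 and from the upper end for NFYB. Red upward triangles are high-GL bulls, blue downward triangles low-GL bulls and grey points the others. Values cluster near 0 inside both runs, and the first position of the low run of NFYB, 68125852, has values from 7.69% to 61.5%.

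Whether the groups of a trait differ was first asked with tiles of 2000 bp, after the methods of the study. A tile with a listed position in each bull of both groups was tested by logistic regression, fitted to all such tiles of the genome without a term for the spread between bulls. A differentially methylated region (DMR) had a q value under 0.01 and a difference over 5 percentage points. Of the tiles that overlap the 2 genes with their flanks, 16 were tested for at least 1 trait, in 39 tests, and 3 of the 39 were called. For GL 2 of 8 tests were called, where 8.75% of all tested tiles of the genome were. For SCE 1 of 9 was called, where 6.18% of all were. None of the 5 tests for BDE, 4 for CCR and 13 for SCR was called, where 7.57%, 11.1% and 8.68% of all were. By the unadjusted p of the logistic test, 12 of the 39 lay under 0.05, where 22.7 to 28.3% of all tiles did, depending on the trait. With so few tests these counts are not a result about the genes.

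All 3 called tiles contain an edge of a low run, as do the tiles of 14 of the 39 tests, 11 of which were not called. Across the 39 tests the median absolute difference was 2.91 points, and 11 exceeded 5 points. When groups were compared only at matched positions, those with a value on both sides, by the Cochran-Mantel-Haenszel test with each position as a stratum, the median was 2.21 points, 6 exceeded 5 points, and 0 of 39 were called. By this test 2.19% of all tiles were called for GL, 1.31% for SCE, 1.6% for BDE, 4.4% for CCR and 1.17% for SCR. Its unadjusted p lay under 0.05 in 3 of the 39, and in 13.5 to 20.3% of all tiles. An F test with overdispersion and limma, which both take the spread between bulls as the error, also called 0 of 39, with unadjusted p under 0.05 in 2 and 3 tests, and in 2.67 to 4.67% and 3.81 to 4.91% of all tiles. These tests called 0 tiles of the whole genome for each of the 5 traits, so their 0 says nothing particular to the genes.

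The tile chr5:68124001-68126000 holds the inner edge of NFYB's low run and was called for GL. The high-GL bulls averaged 100% in H03 over 3 positions, 96.4% in H09 over 2, 100% in L03 over 3 and 97.6% in L05 over 10. The low-GL bulls averaged 82.6% in H02 over 8 positions, 78.7% in H05 over 8, 49.2% in L01 over 2 and 79.5% in L07 over 6. Every high-GL bull lay above every low-GL bull, and this was the only one of the 8 GL tests of the genes whose groups did not overlap. Groups did not overlap, in either direction, in 3.3% of all GL tiles. The difference was 20.5 points (q = 9.62e-10, logistic test). All 4 low-GL bulls list the edge positions 68125852 and 68125853, which gave 8 of their 24 values in the tile (33.3%), and no high-GL bull lists either. The 2 values of L01 are these positions only. Of the 13 positions of the tile, 9 are listed on both sides, and there the high-GL mean was higher at 3, lower at 2 and equal at 4, with differences from −10 to 7.69 points. At these positions the difference was 0.633 points (q = 0.735, Cochran-Mantel-Haenszel).

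In HCFC2 the tile chr5:68050001-68052000, with the outer edge of the low run, was lower in the high-GL bulls, while on a grid shifted by 1000 bp the tile from 68049001 at the same edge was 20.5 points higher in them (q = 8.28e-07, logistic test). H03 averaged 13.3% over 3 positions, H09 18.3% over 6, L03 27.3% at 68050534 alone and L05 0% over 10. The low-GL bulls averaged 33.9% in H02 over 6 positions, 21.8% in H05 over 11, 33.7% in L01 over 6 and 29.0% in L07 over 7. The groups overlapped, with L03 above H05. The difference was −19.4 points (q = 1.3e-06, logistic test). The 10 positions of L05 all lie deep in the low run, and the run held 90% of the values of the high-GL bulls (18 of 20) and 70% of those of the low-GL bulls (21 of 30). At the 8 positions of 23 that both sides list, the high-GL mean was higher at 2, lower at 2 and equal at 4, and the difference was −1.78 points (q = 0.701, Cochran-Mantel-Haenszel). Without L05 the tile difference was −10.6 points (q = 0.103, logistic test).

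For SCE the tile chr5:68128001-68130000 was called, with the outer edge of NFYB's low run. The high-SCE bulls averaged 0% in H03 over 23 positions, 14.4% in H07 over 9 and 19.2% in L02 over 2. The low-SCE bulls averaged 33.3% in H01 at 1 position, 12.96% in H06 over 13 and 83.3% in L09 at 1 position, 68129884, which lies outside the run. The groups overlapped, and the difference was −14.1 points (q = 8.78e-05, logistic test). Only 2 of 41 positions are listed on both sides, where the difference was 2.75 points (q = 0.795, Cochran-Mantel-Haenszel). H03 gave most of the values on the high side, and without it the tile difference was −3.70 points (q = 0.508, logistic test). H06 gave most of those on the low side, and without it the difference was −53.4 points (q = 7.25e-08, logistic test).

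**Figure D4:**
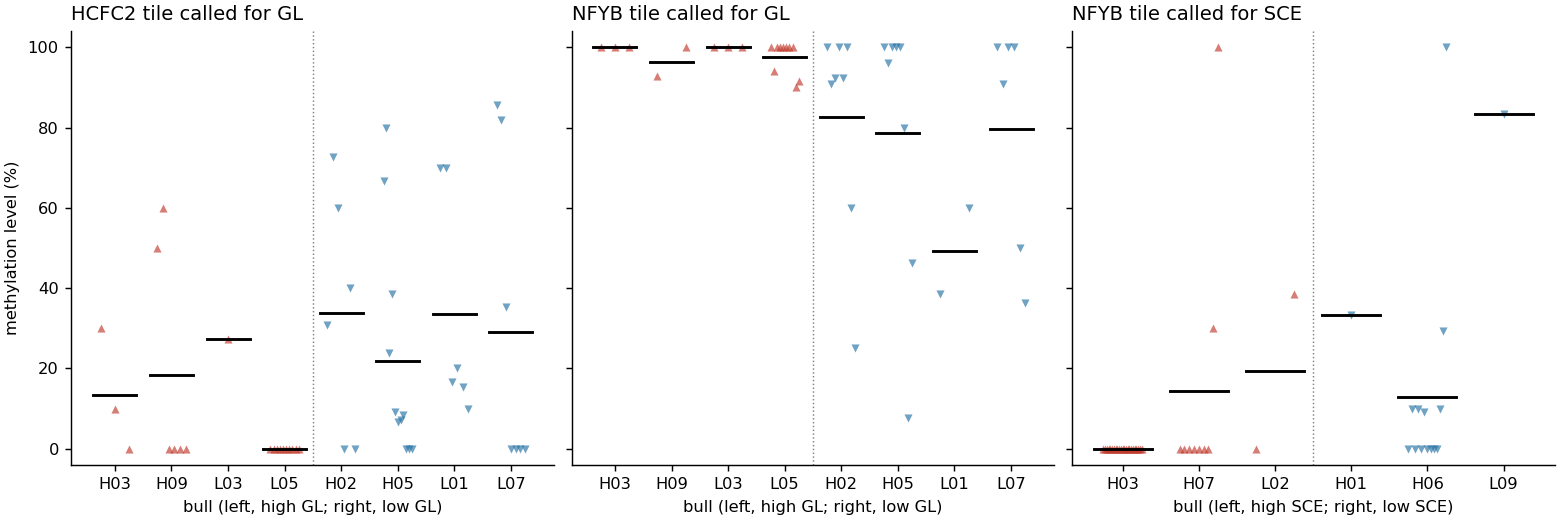
Methylation in percent (vertical axis) of every listed position in the 3 called tiles, by bull (horizontal axis) with the high and low group of the trait apart. Each point is 1 position and the black line the mean of the bull. In the NFYB tile called for GL the high bulls average 96.4 to 100% and the low bulls 49.2 to 82.6%, and the low-lying points of the low bulls are positions of the low run.

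Several tests came near the thresholds. The SCR test of the tile from 68128001 in NFYB had q = 0.00732 by the logistic test, but its difference of −4.32 points stayed under 5, and at matched positions it was 0.0767 points. The GL test of the HCFC2 tile from 68054001, on the inner edge, gave −14.2 points (q = 0.0247, logistic test) and 2.49 points at matched positions. The tile from 68114001 in NFYB was 6.68 points higher in the high-SCR bulls (q = 0.0445, logistic test) and 5.41 points higher at matched positions (q = 0.479, Cochran-Mantel-Haenszel). For SCE the HCFC2 tile from 68056001 gave 14.4 points (q = 0.0373, logistic test) and −7.53 points at matched positions.

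The low runs themselves could be compared where they are densest. A segment of positions listed in at least 6 bulls, with mean levels under 25%, held 22 positions from 68052994 to 68053790 in HCFC2, averaging 1.71%, and 20 positions from 68128440 to 68128885 in NFYB, averaging 1.92%. The bulls with a listed position there ranged from 0 to 5.33% in HCFC2 (15 bulls, median 2.02%) and from 0 to 4.02% in NFYB (14 bulls, median 1.37%). In HCFC2 the high-GL bull H03 had 0% from 2 positions, L03 0% from 9 and L05 0.619% from 19, and H09 lists no position there. The low-GL bull H02 had 2.17% from 13 positions, H05 1.78% from 21, L01 2.08% from 12 and L07 5% from 2. The groups did not overlap, and the difference was −2.55 points (0.206 ± 0.357% against 2.76 ± 1.504%, SD, exact permutation test, two-sided, p = 0.0286, adjusted p = 0.2 over 7 tests). The p was the smallest that such groups allow. H03 and L07 have 2 positions each there, so their levels, and with them the separation of the groups, are known only loosely. In NFYB the GL difference was −1.84 points (1.0001 ± 1.009% against 2.84 ± 1.31%, SD, n = 4 each, exact p = 0.0857, adjusted p = 0.3). The segment tests for the other traits had an adjusted p of 0.7 by the same exact test, and 3 could not be made because too few bulls list a position. Neither segment difference passed the adjustment, but with groups of these sizes no difference could have passed it over 7 tests. Both differences are small beside the 92.3% and 93.6% of the surroundings.

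In means over positions of a gene and its flanks no group difference passed the exact test. After adjustment none could have, as given below. The mean over positions that every bull of a comparison lists existed in 3 of the 10 comparisons. For GL in NFYB, 5 such positions gave 19.6 ± 1.85% in the high and 21.8 ± 4.07% in the low bulls (SD, n = 4 each, exact permutation p = 0.371), a difference of −2.20 points. Of the 5 positions, 4 lie in the tile from 68128001, past the upper end of the gene and in the low run. These means are therefore not a level of the whole gene. Without the flanks 1 position was left, with 91.4 ± 7.49% and 92.4 ± 10.1% (SD, n = 4 each). With the flanks but without L01 the difference was −3.80 points over 8 positions, and the groups did not overlap (exact p = 0.0286). By deviations from position means over 51 positions it was −0.114 points (exact p = 0.914). For BDE in NFYB the 1 such position, 68123303, gave 94.2 ± 5.04% and 93.9 ± 10.5% (SD, n = 3 each, exact p = 1). For SCR in HCFC2 it was 68058321, with 94.9 ± 8.88% and 100 ± 0% (SD, n = 3 each, exact p = 1). There only H01 was under 100%, at 84.6%.

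In the other 7 comparisons the mean deviation from position means was compared. For GL in HCFC2 it was 1.09 ± 3.85 points in the high and −1.15 ± 1.52 points in the low bulls (SD, n = 4 each), a difference of 2.25 points over 31 positions (exact permutation p = 0.343). Over the 150 positions in at least 5 bulls, a setting added after seeing the data, it was 0.263 points (exact permutation p = 0.8). The other 6 differences were 2.16 points for SCE, 0.457 for CCR and −1.49 for BDE in HCFC2, and −0.0181 for SCE, −0.667 for CCR and −0.0801 for SCR in NFYB. Their exact permutation p lay between 0.2 and 0.9. All 10 adjusted p were 1. With 3 bulls against 3 the exact test cannot go below 0.1, and with 4 against 4 not below 0.0286. Adjusted over the 10 tests, no difference could therefore have passed 0.05. These tests bound a difference only loosely. H03 had the highest deviation of the high-GL bulls in HCFC2, 6.23 points over 13 positions. These include 68071719, where H03 had 100% against a mean of 59.9%. Without H03 the GL difference was 0.534 points (exact p = 0.657). Without L05 it was 3.64 points (exact p = 0.0857). The BDE difference of −1.49 points in HCFC2 (−1.42 ± 1.79 against 0.0728 ± 1.03 points, SD, n = 3 each, exact p = 0.2) slightly exceeded the pooled SD of 1.46 points, and the groups overlapped. It was −0.590 points without H02 and −2.38 points without L03, and the groups did not overlap without L03 or without L02 (exact p = 0.2 for both).

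**Figure D5:**
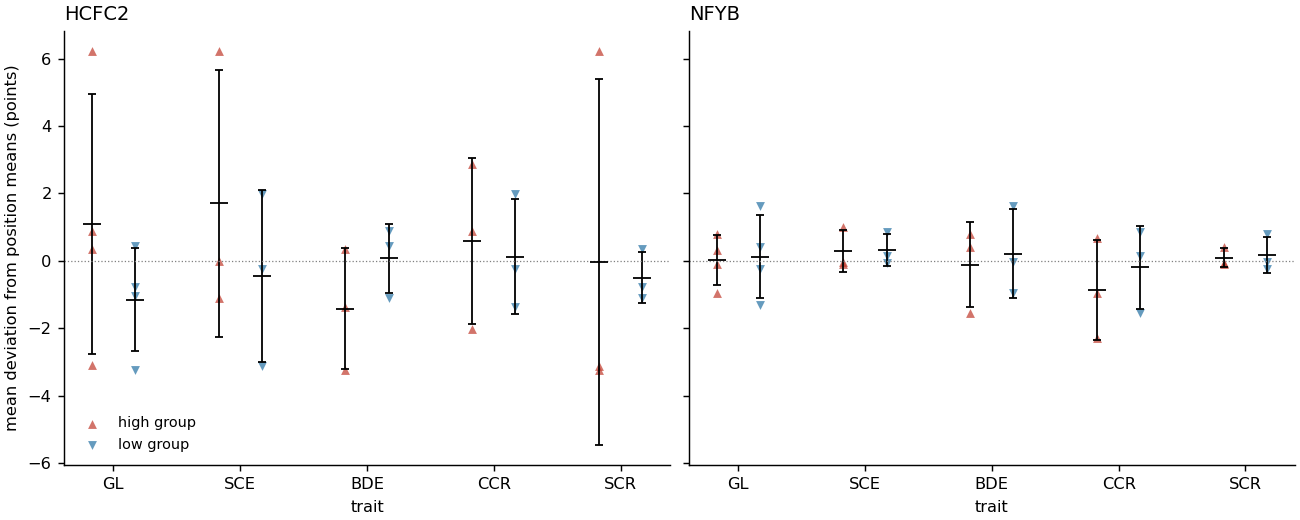
Mean deviation of each bull from the position means, in percentage points (vertical axis), by group of each trait (horizontal axis) for HCFC2 and NFYB, with the group mean ± SD. Groups overlap in every comparison, and the HCFC2 values spread from −3.23 in H02 to 6.23 in H03.

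A mean over all listed positions, which is taken over different positions in each bull, gave some larger differences. For CCR in NFYB it was 55.8 ± 8.40% in the high and 79.4 ± 8.995% in the low bulls (SD, n = 3 each), a difference of −23.6 points (exact permutation p = 0.1, the smallest possible). Outside the low run the same bulls had 94.3 ± 2.05% and 93.6 ± 1.27% (SD, n = 3 each, exact permutation p = 0.6). In HCFC2 outside the low run the CCR groups had 93.8 ± 0.293% and 88.8 ± 7.39% (SD, n = 3 each), a difference of 5.05 points (exact permutation p = 0.1, the smallest possible), and the lowest bull was L09 with 80.3% from 7 positions.

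NFYB and HCFC2 are among 25 genes that the study fine-mapped for gestation length, which is also 1 of the comparisons here, and the others give a setting for the counts. Over these 25 genes 35 of 510 tested tiles (6.86%) were called for GL, 20 of 393 (5.09%) for SCE, 38 of 480 (7.92%) for BDE, 38 of 486 (7.82%) for CCR and 33 of 409 (8.07%) for SCR. Of the 22 or 23 genes with a tested tile, 13 to 15 held a DMR for a trait. The share of all genes of the genome that do was not computed. Genes also differ in tested tiles, for GL 78 in NRG2 and 1 in SCRT1. The called shares of tiles lie near or below those of all tiles given above. Over the 18 bulls the mean deviation of NFYB was most like that of WWP2, a ubiquitin ligase gene (Pearson's r 0.802), and NRG2, a neuregulin gene (0.627), and least like that of ZNF16 (−0.249). For HCFC2 the most like were CPSF1, a cleavage and polyadenylation factor gene (0.430), and SLC39A4, a zinc transporter gene (0.356), and the least like was MROH1 (−0.315). These values describe 18 bulls, and the 1 library of each bull serves all genes.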

How the data were processed

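Sperm DNA of 18 bulls was bisulfite-sequenced. According to the submitters' processing notes the authors used FastQC 0.11.2, Trim Galore 0.4.0, Bowtie2 and Bismark 0.14.5 with the UMD 3.1 genome. The authors deposited for each bull the percent of methylated reads at CpG positions with at least 10 reads, and for 6 bulls the counts of reads as well. The design had counted each position as 10 reads, which was done for GL, SCE, BDE and CCR, while SCR used the deposited counts. The test at matched positions is an exception, as it counted 10 reads for SCR as well. Since 12 bulls list no coverage, their depth is unknown.

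Bulls list 2858992 to 22048556 positions. A T allele at a CpG reads as unmethylated, and genotypes were not used here. Genes of the study's supplementary list were extended by 2000 bp. The named items were the 2 genes, the called tiles, the 3 positions per gene with the largest SD in at least 9 bulls, and the 2 most and 1 least correlated of the 25 fine-mapped genes. Tiles were tested over the whole genome by logistic regression, with q values by a simplified form of the SLIM approach of the study. Bull means were tested by exact permutation tests, two-sided, with Benjamini-Hochberg adjustment. The mean over positions listed in every bull existed in 3 of 10 comparisons, so deviations from position means replaced it in 7. The low run was defined after the levels were seen, and genes, lists and tests were chosen with earlier results of these data known. Python 3.11.15, NumPy 2.4.6, SciPy 1.17.1, matplotlib 3.10.9, R 4.3.3 and limma 3.58.1 were used, and the tests were tested on simulated data. Alternatives were the F test, limma, matched positions, at least 3 positions per tile, a shifted grid, 13 reads per position, Benjamini-Hochberg q values, other sets of positions and each bull left out.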

Additional observations from a re-analysis of the deposited data

Results flagged for a closer look

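Among 23 sets of values in groups of 4 bulls, 2 held a bull that lay far from the others. The cutoff nominally flags about 1 in 20 groups by chance, and the 23 sets share bulls. In the low-GL group, L01 averaged 49.2% in the NFYB tile from 68124001, where the nearest bull had 78.7%, and its 2 values there are the edge positions 68125852 and 68125853. In the HCFC2 segment, the low-GL bull L07 averaged 5% from 2 positions, where the nearest bull had 2.17%.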

How the results depend on the processing

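Depth limits single values to about 10 reads, and 12 bulls list none. The 2 GL tiles fell to 0 called under the F test and limma, which call 0 tiles of the genome, at matched positions, and with at least 3 positions per bull, which left 3 tiles to test and neither of the 2. With 13 reads per position 3 of 8 were called, and 12.2% of all tiles. With a shifted grid 2 of 10 were (8.81% of all tiles), and the HCFC2 call, now from 68049001, was 20.5 points in place of −19.4. Leaving out 1 bull gave 1 of 8 (without L05, 7.84% of all tiles) to 4 of 11 (without L03, 8.58% of all tiles). The tested tiles thus change with the setting, and these counts are not a result about the genes. The 1 SCE tile fell to 0 under the same 4 settings, of which at least 3 positions left 1 other tile to test. With 13 reads 2 of 9 were called, and 10.1% of all tiles. With a shifted grid 2 others of 7 were (6.22% of all tiles), both higher in high SCE (32.9 points from 68125001 and 18.2 from 68049001). Leaving out 1 bull gave 0 of 9 (without H03) to 2 of 10, 11 or 9 (without H07, L02 or H06). In these 6.17 to 6.49% of all tiles were called. With a shifted grid 1 BDE and 2 CCR tiles were called in place of 0. Leaving out 1 bull gave 0 to 1 for BDE, 0 to 2 for CCR and 0 to 2 for SCR, in which 2 were called without L03 and 2 for CCR without L08. The SCE tile in NFYB turned to 2.75 points at matched positions. The cause was not tested.

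Mean differences reversed sign under other positions. None passed the threshold, which exact tests of so few bulls could not reach after adjustment. Over all listed positions they were −6.99 (GL, HCFC2), −3.55 (SCE, HCFC2), 3.46 (SCE, NFYB), −5.77 (CCR, HCFC2) and 11.03 points (SCR, HCFC2). At positions in at least 5 bulls, a setting added after seeing the data, they were 1.002 (GL, NFYB), −0.630 (SCE, HCFC2), −0.442 (CCR, HCFC2), 0.575 (SCR, HCFC2) and 0.191 (SCR, NFYB). By deviations they were −0.328 (BDE, NFYB) and 0.464 (SCR, HCFC2), and without flanks or segment 0.607 (SCE, NFYB). Leaving out 1 bull they ranged from −0.102 to 3.56 (SCE, HCFC2), −0.372 to 0.249 (SCE, NFYB), −7.48 to 3.28 (BDE, NFYB), −0.691 to 1.76 (CCR, HCFC2), −1.43 to 0.0453 (CCR, NFYB) and −0.283 to 0.228 (SCR, NFYB). In the segments they ranged from −3.52 to 1.22 (SCE, HCFC2), −0.500 to 2.17 (SCR, HCFC2) and −0.720 to 3.17 (SCR, NFYB). Without 1 bull the GL difference of HCFC2 ranged from 0.534 to 3.64 points.

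High-SCR and low-SCR bulls share numbers in their names, such as H01 and L01, but are different animals. Tile deviations of the 3 same-numbered SCR pairs had a Pearson's r between −0.0201 and 0.0171. An SCR fit with a term for these numbers called 0 of the 13 tiles of the genes, where 7.45% of all tiles were called. A coverage minimum of 15 reads left no tile of the genes to test.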

Other observations

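H08 and L09 list few positions in the 2 genes for their genome-wide totals. H08 lists 22048556 positions in all and 124 in the 2 genes. L09 lists 6447515 and 22. H01, with the lowest total of 2858992, lists 89 there, and H05 lists 428 of 16641749. The cause was not tested. H04 and L04, which stand in no group, averaged 93.5% and 86.0% outside the low run of HCFC2 and 95.2% and 93.7% outside that of NFYB. Their low runs averaged 6.37% and 3.15% in HCFC2 and 3.41% and 4.96% in NFYB.

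Several positions with wide values in fewer than 9 bulls were chosen after their values were seen. At 68116885 in NFYB, L01 had 0%, H03 27.3%, L08 36.4%, H06 55.6%, L07 66.7%, L05 68.8% and L06 100%. On the other strand of this CpG, 68116886, L01 also had 0% and H05 100%. At 68129884, past the low run of NFYB, L01 and L07 had 0%, L04 25%, L03 28.6%, L06 50%, H08 63.6%, H05 72.7% and L09 83.3%. At 68062547 in HCFC2, H01 had 0% and the other 6 listing bulls 27.3 to 58.3%.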
